A study of Mus musculus with 48 samples.

Results

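The genes examined here code for the proteins that coat lipid droplets and for the enzymes and cofactors that release fatty acids from them. They were chosen by symbol, as the rows of the frozen (FROZ) and the formalin-fixed paraffin-embedded (FFPE) expression tables named Plin2, Plin4, Plin5, Cidea, Cideb, Cidec, G0s2, Pnpla2, Mgll or Abhd6. Of these 10 genes, 8 were listed among the 11275 genes of the FROZ table and the same 8 among the 6673 genes of the FFPE table. Cidea and Cidec, whose proteins promote the fusion of droplets, were listed in neither and are not analysed here. Expression was measured by TempO-Seq, in which pairs of short detector oligos are ligated on their target transcript, amplified and sequenced, so that a read counts a ligated probe. The livers came from 24 male B6C3F1 mice, 4 weeks old, that drank water with dichloroacetic acid (DCA) at 0, 1.0, 2.0 or 3.5 g/L for 6 days. The water at 0 g/L was the vehicle control, and with 6 mice in each of the 4 groups the estimated intakes were 0 for controls, 198 for the lowest, 313 for the middle and 427 mg/kg-d for the highest dose. A FROZ and an FFPE library were made from every mouse, 48 libraries in all, so the replicates within a table were separate animals of 1 strain and 1 sex. By the paper, FROZ tissue was left lateral caudate and right medial lobe, and FFPE tissue was left lateral and right medial lobe. The tissue had been stored for decades, in a freezer for FROZ and as blocks at ambient temperature for FFPE. Preservation can therefore not be told apart from the lobes sampled, from the storage or from the input. The input was isolated RNA for FROZ and a section lysate for FFPE.

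Hepatocytes store surplus fatty acids as triglyceride in droplets whose surface is covered by perilipins and other coat proteins. Lipolysis then proceeds in steps: adipose triglyceride lipase (the product of Pnpla2) removes the first fatty acid, other lipases act on the diacylglycerol, and monoacylglycerol lipases such as the products of Mgll and Abhd6 remove the last. Several coat and lipase genes are known targets of PPAR alpha, the nuclear receptor that senses fatty acids in liver. DCA is known as an inhibitor of pyruvate dehydrogenase kinase.

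The reads on listed genes ranged from 6.69 to 9.84 M in FROZ and from 1.83 to 6.01 M in FFPE (M, 1000000 reads), and 12 to 61 genes were listed at 0 in a FROZ library against 65 to 1582 in an FFPE library. The FFPE libraries with the fewest reads were in the 198 mg/kg-d group, whose median was 3.38 M. All levels below are log2(CPM + 1), where CPM is the count per 1000000 reads on the listed genes of that table, unless CPM is stated. Of 6 hepatocyte markers, 5 were listed in FROZ with a summed median of 24734 CPM in controls and 20313 CPM at 427 mg/kg-d, and 4 in FFPE with 42239.8 and 25714 CPM. The sums were mostly Apoa1, whose mean level in FROZ went from 14.24 in controls to 13.94 at 427 mg/kg-d. Alb went from 11.55 to 11.48 there, and Ttr from 10.58 to 10.90. In FFPE Apoa1 went from 14.93 to 14.14, Alb from 13.22 to 12.61 and Ttr from 10.11 to 10.73. The summed endothelial markers went from a median of 126 CPM in FROZ controls to 103 CPM at 427 mg/kg-d, and the summed Kupffer cell markers from 93.0 to 67.3 CPM. None of the listed markers of these 3 cell types was a differentially expressed gene, by the rule given next, at any dose in either table. That rule has a fold limit. On FDR alone, 3 of 5 Kupffer cell markers and 1 of 5 endothelial markers were lower in FROZ at 427 mg/kg-d. In FFPE, 1 of 4 hepatocyte markers was lower at that dose, and no marker of these cell types was higher at it in either table. Of 7 adipocyte markers, Adipoq, Lep, Cfd, Retn and Plin1 were not listed in either table. Fabp4 and Lipe together held between 18.9 and 47.3 CPM in 23 of 24 FROZ libraries. This sum was mostly Fabp4, with a mean control level of 4.77 against 0.85 for Lipe. At 427 mg/kg-d in FROZ the log2 fold change of Fabp4 was 0.02 (limma, FDR = 0.969). Lipe, itself a lipase gene, was higher by 0.88 (FDR = 0.00048), under the fold limit. In whole tissue, fewer cells of a type and less RNA per cell cannot be told apart, and the part of cell composition in the results was not tested.

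In FROZ livers, the droplet coat gene Plin2, the monoacylglycerol lipase genes Mgll and Abhd6, the lipase inhibitor gene G0s2 and the coat gene Plin5 rose with DCA. A differentially expressed gene (DEG) was called by limma across all listed genes at a Benjamini-Hochberg FDR under 0.05 and a fold change above 2. No member was a DEG at 198 mg/kg-d, where 0.0443% of all FROZ genes were DEGs with higher expression. At 313 mg/kg-d, 3 of 8 members were higher DEGs (Plin2, Mgll and Abhd6) against 1.43% of all genes, and at 427 mg/kg-d 5 of 8 (these and G0s2 and Plin5) against 2.26%. No member was a lower DEG, against 0.0621, 0.887 and 1.24% of all genes by dose. On FDR alone the counts of higher members were 0, 4 and 6, against 1.12, 20.5 and 22.7% of all genes. The median log2 fold change of the 8 members was 0.08, 0.78 and 1.32 at the 3 doses, and that of all genes was 0.07, 0.11 and 0.10. Scaling the libraries by their median ratio in place of CPM moved the median of all genes at 427 mg/kg-d to -0.01 and that of the members to 1.18.

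**Figure D1:**
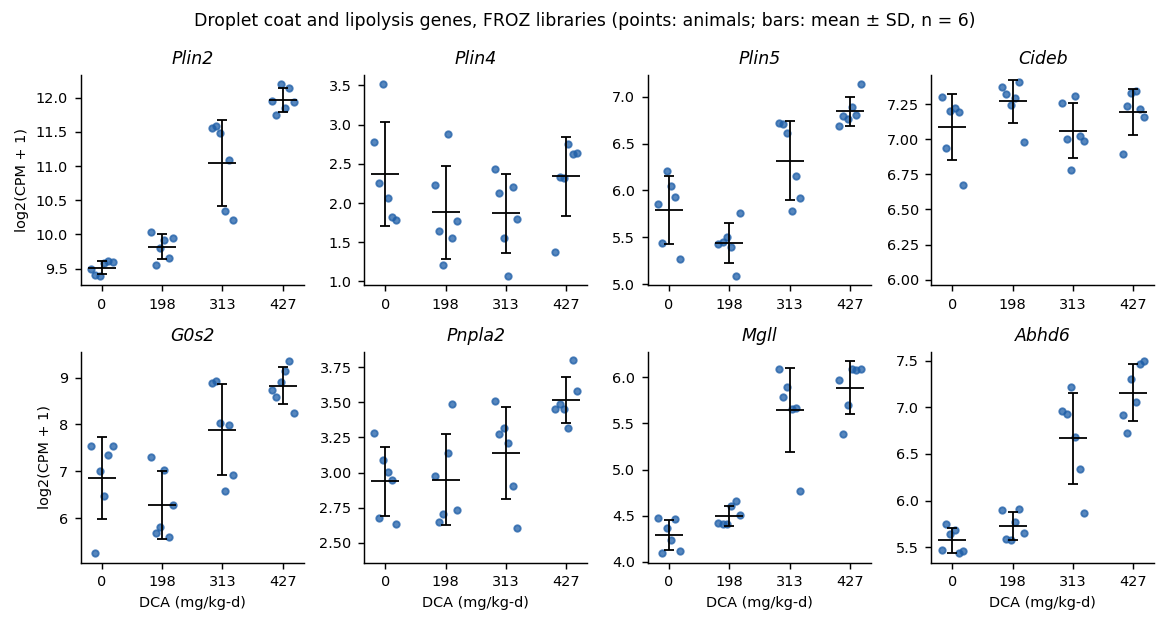
Levels of the 8 listed members in the FROZ libraries, as log2(CPM + 1) against the DCA dose in mg/kg-d. Each point is 1 animal and the bars give the mean and SD of 6 animals; the 6 animals at 427 mg/kg-d lie above every control for Plin2, Plin5, G0s2, Pnpla2, Mgll and Abhd6, and among the controls for part of Plin4 and Cideb.

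The 5 genes that were higher DEGs in FROZ lie on 5 chromosomes, and their promoters are shown because these genes moved together. The windows are from RefSeq on GRCm38.p6 and run from 250 bases before the annotated start to 10 bases into the transcript, 5′ to 3′ on the strand of the gene. For Plin5, Mgll and Abhd6, each with a pair of annotated starts, the window of the first listed start is printed. Capitals mark AGGTCA, the hexamer that nuclear receptors of the PPAR type bind, and CACGTG, the E-box. Both motifs were searched on both strands.

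Plin2, chr4:86670050-86670309, minus strand: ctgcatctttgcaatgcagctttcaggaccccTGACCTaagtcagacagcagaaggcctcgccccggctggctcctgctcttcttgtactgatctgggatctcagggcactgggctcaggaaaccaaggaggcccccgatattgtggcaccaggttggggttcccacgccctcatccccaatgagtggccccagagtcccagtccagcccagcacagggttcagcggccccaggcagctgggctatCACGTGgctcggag
Plin5, chr17:56117539-56117798, minus strand: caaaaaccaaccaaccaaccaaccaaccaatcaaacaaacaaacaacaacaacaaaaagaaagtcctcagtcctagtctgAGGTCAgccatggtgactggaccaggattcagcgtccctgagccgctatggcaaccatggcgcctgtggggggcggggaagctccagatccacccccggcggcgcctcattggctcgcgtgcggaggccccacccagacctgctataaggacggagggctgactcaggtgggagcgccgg
G0s2, chr1:193273179-193273438, minus strand: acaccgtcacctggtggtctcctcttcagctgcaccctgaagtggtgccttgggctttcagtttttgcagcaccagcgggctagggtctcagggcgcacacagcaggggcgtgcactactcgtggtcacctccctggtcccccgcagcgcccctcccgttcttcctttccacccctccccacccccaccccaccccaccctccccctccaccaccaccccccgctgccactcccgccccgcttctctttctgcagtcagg
Mgll, chr6:88724162-88724421, plus strand: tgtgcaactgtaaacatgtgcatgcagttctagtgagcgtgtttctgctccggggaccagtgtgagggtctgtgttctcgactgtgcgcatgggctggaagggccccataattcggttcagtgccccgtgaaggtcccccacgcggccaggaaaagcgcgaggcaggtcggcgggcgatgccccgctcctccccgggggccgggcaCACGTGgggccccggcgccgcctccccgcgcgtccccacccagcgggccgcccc
Abhd6, chr14:8002638-8002897, plus strand: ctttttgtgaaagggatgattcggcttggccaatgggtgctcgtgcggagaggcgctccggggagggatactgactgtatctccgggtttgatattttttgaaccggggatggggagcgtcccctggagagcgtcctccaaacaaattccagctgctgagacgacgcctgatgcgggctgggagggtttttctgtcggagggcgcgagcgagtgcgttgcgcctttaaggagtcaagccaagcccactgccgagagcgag

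The AGGTCA hexamer occurred in the Plin2 window at position -218 (on the opposite strand, as TGACCT) and in the Plin5 window at -170, counted from the annotated start. It was present in 14.5% of 32851 RefSeq promoter windows of the same length. The E-box occurred in the Plin2 window at -4 and in the Mgll window at -44, against 6.34% of all windows. The G0s2 and Abhd6 windows held neither motif. The direct repeat of AGGTCA with any 1 base between the copies, which contains the hexamer, was found in 11 of all windows and in none of the 13 windows of the 9 members in the promoter table, of which Plin4, Cideb, Cidec and Pnpla2 held no AGGTCA or CACGTG either. These are matches of letters in a short window.

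Plin2 (chr4:86648386-86670060, minus strand of GRCm38) codes for the perilipin that covers most hepatocyte droplets, and it had the largest log2 fold change of the 8 members at 427 mg/kg-d in both tables. In FROZ its lowest, median and highest levels were 9.39, 9.54 and 9.61 in controls and 9.56, 9.86 and 10.04 at 198 mg/kg-d. They were 10.21, 11.28 and 11.59 at 313 mg/kg-d and 11.75, 11.94 and 12.20 at 427 mg/kg-d. Of the 6 livers at 198 mg/kg-d, 5 lay above every control, and from 313 mg/kg-d on the treated livers and the controls did not overlap. In CPM the mean went from 731 ± 47.3 (SD, n = 6) in controls to 4036 ± 487 at 427 mg/kg-d. Against controls the log2 fold change was 0.30 ± 0.18 (SE) at 198 mg/kg-d (limma, FDR = 0.399), 1.53 ± 0.18 at 313 mg/kg-d (FDR = 5.6e-07) and 2.46 ± 0.18 at 427 mg/kg-d (FDR = 6.9e-11), the last a 5.49-fold increase. Plin2 was the one member with an FDR under 0.05 for the step from 313 to 427 mg/kg-d, where its log2 difference was 0.93 ± 0.18 (FDR = 0.00462). The spread at 313 mg/kg-d was wide, with an SD of 0.63 against 0.09 in controls, and animals 76 and 78 held the values nearest the controls (10.34 and 10.21).

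Plin5 (chr17:56111601-56117596, minus strand) codes for the perilipin that joins droplets to mitochondria in tissues that oxidise fat. Its FROZ levels were 5.26, 5.89 and 6.20 in controls (lowest, median, highest), 5.09, 5.44 and 5.76 at 198 mg/kg-d, 5.78, 6.38 and 6.72 at 313 mg/kg-d and 6.69, 6.80 and 7.13 at 427 mg/kg-d. The 198 mg/kg-d livers lay in the lower part of the control range or just under it, whereas all 6 livers at 427 mg/kg-d lay above it. The log2 fold change at 198 mg/kg-d was -0.35 (95% interval -0.68 to -0.02, FDR = 0.257) and did not pass the test. It was 0.53 ± 0.16 (SE) at 313 mg/kg-d (FDR = 0.0166), under the fold limit, and 1.06 ± 0.16 at 427 mg/kg-d (FDR = 1.3e-05). The call at 427 mg/kg-d stood close to the fold limit. The log2 fold change was 0.91 with median ratio scaling, 0.99 without control animal 4 and 0.95 without control animal 8. It was 1.00 (just under the limit) without animal 102, and each of these FDRs stayed under 0.05. Over the 24 fits that left out 1 library, it ranged from 0.95 to 1.14.

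Plin4 (chr17:56100591-56109803, minus strand) codes for a perilipin of adipose tissue and muscle and lies 1797 bases from Plin5. It was counted with 8 to 96 reads per FROZ library. Its FROZ levels were 1.78, 2.16 and 3.52 in controls, 1.21, 1.70 and 2.88 at 198 mg/kg-d, 1.07, 1.97 and 2.43 at 313 mg/kg-d and 1.37, 2.48 and 2.75 at 427 mg/kg-d. The groups overlapped at every dose, and no fold change passed the test. The log2 fold change at 427 mg/kg-d was -0.03 (95% interval -0.64 to 0.58, FDR = 0.957), and it changed sign with array quality weights (0.07) and without control animal 3 (0.053), control animal 5 (0.20) or animal 97 (0.17). Animal 5 held the highest control level of Plin4, and its FROZ library held 3196 CPM of the skeletal muscle markers Acta1 and Mylpf, against 196 CPM in animal 6 and 4.90 to 18.3 CPM in the other 22 livers. The highest level at 198 mg/kg-d was in animal 52, whose FROZ library held 158 CPM of the adipocyte markers Fabp4 and Lipe, the library outside the range given above. Without animal 52 the log2 fold change at 198 mg/kg-d was -0.69 (FDR = 0.26) against -0.49 (FDR = 0.416) with it. The highest FROZ control levels of Plin5 were also in animals 5 and 6 (6.20 and 6.05). Acta1 and Mylpf were both lower DEGs at 313 and 427 mg/kg-d in FROZ. Whether muscle or adipose tissue in these libraries had a part in the Plin4 or Plin5 levels was not tested.

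Cideb (chr14:55754050-55758458, minus strand) codes for the member of the CIDE family typical of hepatocytes, which acts in loading lipid onto very low density lipoprotein. In FROZ its levels lay between 6.67 and 7.30 in controls and between 6.90 and 7.34 at 427 mg/kg-d. No dose passed the test. The log2 fold change at 427 mg/kg-d was 0.11 (95% interval -0.11 to 0.33, FDR = 0.485) in CPM and -0.04 with median ratio scaling.

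G0s2 (chr1:193272161-193273217, minus strand) codes for a small protein that binds and inhibits adipose triglyceride lipase. Its FROZ levels were 5.26, 7.17 and 7.54 in controls (lowest, median, highest) and 5.60, 6.05 and 7.31 at 198 mg/kg-d. They were 6.57, 8.00 and 8.94 at 313 mg/kg-d and 8.23, 8.82 and 9.35 at 427 mg/kg-d. Control animal 4 lay well below the other 5 controls, of which the lowest was 6.48. At 313 mg/kg-d 4 of 6 livers lay above every control while animals 76 and 78 lay among them, and at 427 mg/kg-d all 6 lay above. G0s2 had a log2 fold change of -0.57 ± 0.39 (SE) at 198 mg/kg-d (FDR = 0.477), 1.03 ± 0.39 at 313 mg/kg-d (FDR = 0.0517) and 1.96 ± 0.39 at 427 mg/kg-d (FDR = 0.000346). The 313 mg/kg-d value missed the FDR threshold and passed it in 6 of 24 fits that left out 1 library, those without control animal 3, 7 or 8 or animal 49, 76 or 78, with FDRs of 0.0147 to 0.0482. Without control animal 4 it was 0.71 (FDR = 0.162), and the value at 427 mg/kg-d was 1.64 (FDR = 0.00117). From 198 to 313 mg/kg-d G0s2 rose by a log2 difference of 1.60 ± 0.39 (FDR = 0.00739), and Plin2, Mgll and G0s2 were the 3 members that were higher DEGs between these doses, against 1.02% of all genes.

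Pnpla2 (chr7:141455198-141460743, plus strand), whose product is the lipase that G0s2 inhibits, was counted with 39 to 97 reads per FROZ library. Its FROZ levels were 2.63, 2.97 and 3.28 in controls, 2.65, 2.85 and 3.49 at 198 mg/kg-d, 2.60, 3.24 and 3.51 at 313 mg/kg-d and 3.32, 3.47 and 3.80 at 427 mg/kg-d. The lowest liver of the highest dose lay just above the highest control, and at the lower doses the groups overlapped. The log2 fold change at 427 mg/kg-d was 0.58 ± 0.16 (SE, FDR = 0.00583), past the FDR threshold but a 1.49-fold change. The value for 313 mg/kg-d was 0.20 (95% interval -0.12 to 0.52, FDR = 0.376).

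Mgll (chr6:88724412-88828360, plus strand) codes for monoacylglycerol lipase, which releases the last fatty acid from glycerol. Its FROZ levels were 4.10, 4.30 and 4.47 in controls and 4.41, 4.46 and 4.66 at 198 mg/kg-d. They were 4.77, 5.73 and 6.09 at 313 mg/kg-d and 5.39, 6.02 and 6.09 at 427 mg/kg-d. The 313 and 427 mg/kg-d livers all lay above the controls. The lowest value of the 313 mg/kg-d group was animal 78, well under the other 5. Its log2 fold change was 0.21 ± 0.15 (SE) at 198 mg/kg-d (FDR = 0.515), 1.35 ± 0.15 at 313 mg/kg-d (FDR = 3.5e-07) and 1.60 ± 0.15 at 427 mg/kg-d (FDR = 9.7e-09). The last step, from 313 to 427 mg/kg-d, was 0.24 (95% interval -0.07 to 0.56, FDR = 0.433).

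Abhd6 (chr14:8002902-8056763, plus strand) codes for a membrane-bound monoacylglycerol lipase. Its FROZ levels were 5.44, 5.55 and 5.75 in controls and 5.57, 5.71 and 5.91 at 198 mg/kg-d. They were 5.87, 6.81 and 7.21 at 313 mg/kg-d and 6.72, 7.18 and 7.49 at 427 mg/kg-d. As for Mgll, the livers of both higher doses lay above all controls, with animal 78 the nearest to them. Its log2 fold change was 0.16 ± 0.16 (SE) at 198 mg/kg-d (FDR = 0.670), 1.09 ± 0.16 at 313 mg/kg-d (FDR = 1.5e-05) and 1.58 ± 0.16 at 427 mg/kg-d (FDR = 2.5e-08). The value for 313 mg/kg-d was under the fold limit with median ratio scaling (0.95) or without animal 75 (0.98).

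Counted without a test, 3 members at 313 mg/kg-d (Plin2, Mgll and Abhd6) and 6 at 427 mg/kg-d had all 6 treated FROZ livers above all 6 controls, against 9.14 and 11.4% of all genes. A linear slope on dose passed an FDR of 0.05 for 6 of 8 members in FROZ, all rising, against 24.4% of all genes. The slopes per 100 mg/kg-d were 0.59 for Plin2, 0.48 for G0s2, 0.41 for Mgll, 0.39 for Abhd6, 0.26 for Plin5 and 0.13 for Pnpla2 on the log2 scale. Between neighbouring doses, the step from 198 to 313 mg/kg-d passed the FDR for 5 members (Plin2, Mgll, Abhd6, G0s2 and Plin5) against 8.05% of all genes, and the step from 313 to 427 mg/kg-d for Plin2 alone among the 8 against 1.73%.

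In the FFPE sections of the same livers, the coat gene Plin2, the lipase gene Abhd6 and the inhibitor gene G0s2 rose at 427 mg/kg-d. No member was a DEG at 198 mg/kg-d (0.03% of all FFPE genes were higher DEGs). Plin2 was a DEG at 313 mg/kg-d (1 of 8, against 0.584%), and 3 of 8 members were higher DEGs at 427 mg/kg-d against 1.23%. No member was a lower DEG, against 0.03, 0.225 and 0.584% of all genes by dose. With only the controls and the 427 mg/kg-d group in the fit, 5 members were higher DEGs, against 2.32% of all FFPE genes in that fit. These were Plin2, G0s2 and Abhd6 and in addition Mgll (log2 fold change 1.09, FDR = 0.00118) and Plin5 (1.03, FDR = 0.0167). In the fit of all 24 libraries these had FDRs of 0.681 and 0.796.

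**Figure D2:**
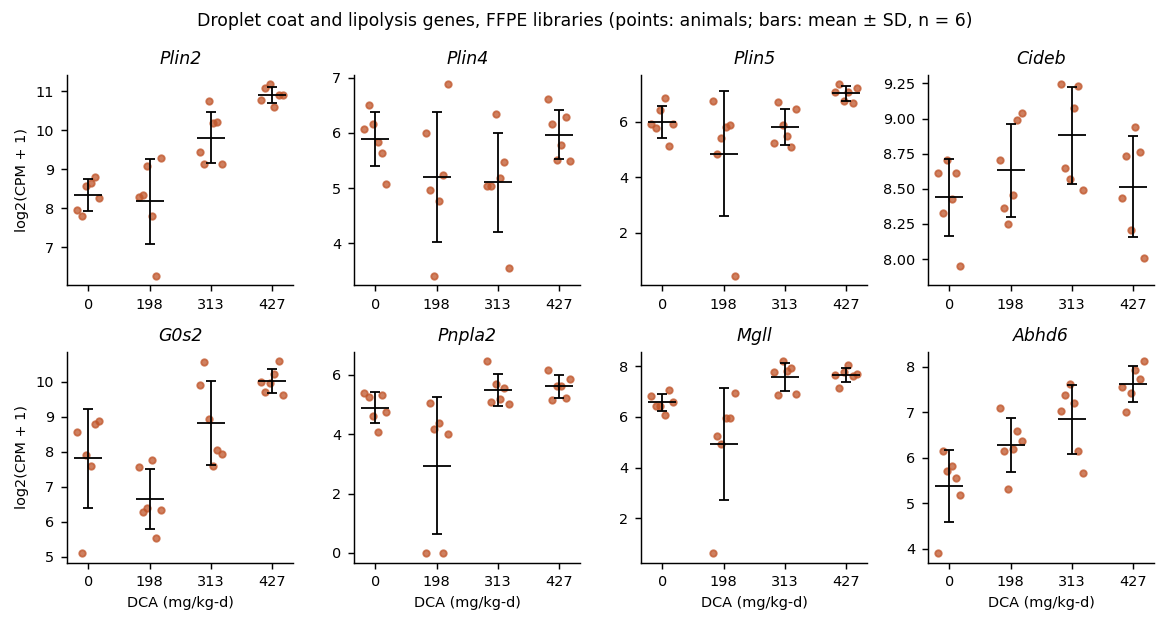
Levels of the 8 listed members in the FFPE libraries, as log2(CPM + 1) against the DCA dose in mg/kg-d, with 1 point per animal and the mean and SD of 6 animals. At 198 mg/kg-d single sections fall near 0 for Plin5, Pnpla2 and Mgll, and at 427 mg/kg-d Plin2, G0s2, Mgll and Abhd6 lie above every control.

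In FFPE, Plin2 levels were 7.80, 8.42 and 8.80 in controls (lowest, median, highest), 6.27, 8.32 and 9.30 at 198 mg/kg-d, 9.14, 9.82 and 10.74 at 313 mg/kg-d and 10.59, 10.90 and 11.18 at 427 mg/kg-d. The 198 mg/kg-d sections spread to both sides of the controls, and those of both higher doses lay above them. Its log2 fold change was -0.16 ± 0.34 (SE) at 198 mg/kg-d (FDR = 0.875), 1.47 ± 0.34 at 313 mg/kg-d (FDR = 0.017) and 2.56 ± 0.34 at 427 mg/kg-d (FDR = 3.7e-06). The value at 198 mg/kg-d turned to 0.22 without animal 53, whose section held the lowest level. The call at 313 mg/kg-d was lost without animal 3, 4, 75 or 77, with FDRs of 0.0564, 0.0512, 0.0771 and 0.0535, and with a variance prior that does not follow the mean (FDR = 0.119).

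G0s2 levels in FFPE were 5.11, 8.23 and 8.89 in controls, 5.54, 6.37 and 7.78 at 198 mg/kg-d, 7.58, 8.50 and 10.56 at 313 mg/kg-d and 9.62, 9.98 and 10.58 at 427 mg/kg-d. Only the 427 mg/kg-d sections lay wholly above the controls. The log2 fold change at 427 mg/kg-d was 2.21 ± 0.50 (SE, FDR = 0.0085), and its FDR was 0.0671 with a prior that does not follow the mean. The value for 313 mg/kg-d was 1.02 ± 0.50 (FDR = 0.425), and 0.48 (FDR = 0.75) without control animal 4.

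Abhd6 levels in FFPE were 3.91, 5.63 and 6.15 in controls, 5.30, 6.28 and 7.09 at 198 mg/kg-d, 5.67, 7.12 and 7.62 at 313 mg/kg-d and 7.01, 7.65 and 8.12 at 427 mg/kg-d. Of 6 sections, 5 lay above all controls at each of the lower doses and all 6 at 427 mg/kg-d. Its log2 fold change was 0.89 ± 0.38 (SE) at 198 mg/kg-d (FDR = 0.357), 1.46 ± 0.38 at 313 mg/kg-d (FDR = 0.0503) and 2.24 ± 0.38 at 427 mg/kg-d (FDR = 0.000263). The FDR at 313 mg/kg-d fell under the threshold in 6 of 24 fits that left out 1 library, those without animal 4, 49, 51, 53, 77 or 78, with FDRs of 0.0113 to 0.0424.

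Mgll levels in FFPE were 6.08, 6.51 and 7.06 in controls, 0.63, 5.58 and 6.94 at 198 mg/kg-d, 6.87, 7.79 and 8.20 at 313 mg/kg-d and 7.15, 7.69 and 8.05 at 427 mg/kg-d. All 6 sections at 427 mg/kg-d lay above the controls, although the fit over 24 libraries did not call the gene. The spread it used held the 198 mg/kg-d group, whose SD was 2.22 against 0.34 in controls, and where animal 49 had 1 read of Mgll. Without animal 49 the FDR at 427 mg/kg-d was 0.0483, and with array quality weights 0.00316. Plin5 likewise had 1 read in animal 54 at 198 mg/kg-d and levels of 6.70 to 7.37 at 427 mg/kg-d against 5.14 to 6.86 in controls, so the groups overlapped. Pnpla2 was at 0 in animals 49 and 53, where 0 reads allow up to 3, and its log2 fold change at 427 mg/kg-d was 0.71 (95% interval -0.78 to 2.20, FDR = 1.00). Cideb and Plin4 had log2 fold changes of 0.08 and 0.09 at 427 mg/kg-d (FDR = 1.00 for both), which became -0.03 and -0.01 with median ratio scaling. At 198 mg/kg-d the log2 fold changes of Pnpla2, Mgll, G0s2 and Plin5 were -1.96, -1.64, -1.16 and -1.15 with FDRs of 0.287 to 0.474, in the group with the lowest median read total. Single sections moved these values: Mgll was at -0.78 without animal 49, Plin5 at -0.27 without animal 54, and Pnpla2 between -2.38 and -1.37 and G0s2 between -1.70 and -0.94 without any 1 animal.

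In FFPE, 1 member at 313 mg/kg-d (Plin2) and 4 at 427 mg/kg-d (Plin2, G0s2, Mgll and Abhd6) had treated sections that all lay above the controls, against 0.959 and 2.94% of all genes. The slope on dose passed the FDR for Plin2 (0.62 per 100 mg/kg-d), G0s2 (0.55) and Abhd6 (0.52), 3 of 8 members against 1.51% of all genes rising. From 198 to 313 mg/kg-d, Plin2, G0s2 and Mgll were higher DEGs, with log2 differences of 1.63, 2.18 and 2.65, against 0.629% of all genes.

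Whether a member responded differently in the 2 preservations was then tested within animals, as the FFPE level minus the FROZ level of the same mouse, over the 6591 genes that both tables list. No member's response differed at an FDR of 0.05 at any dose. By dose, in rising order, 0.0303, 0 and 0.0303% of genes did. At an unadjusted p under 0.05, Abhd6, G0s2, Mgll and Pnpla2 differed at 198 mg/kg-d against 11.4% of genes, none at 313 mg/kg-d against 7.39%, and Abhd6 at 427 mg/kg-d against 2.22%. At 427 mg/kg-d the difference in log2 response was 0.10 ± 0.43 (SE) for Plin2, 0.24 ± 0.28 for G0s2, 0.66 ± 0.31 for Abhd6, -0.51 ± 0.63 for Mgll and -0.03 ± 0.73 for Plin5. The SEs for Mgll, Plin5 and Pnpla2 were 0.63 to 0.74, so a difference of 1 log2 unit was not detectable for these genes. Over 6591 genes the FDR was a strict limit for the other members too. Mgll at 198 mg/kg-d differed by -1.85 ± 0.63 (SE, limma, unadjusted p = 0.00747) and still had an FDR of 0.342. The lack of a call therefore does not show equal responses for any member.

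**Figure D3:**
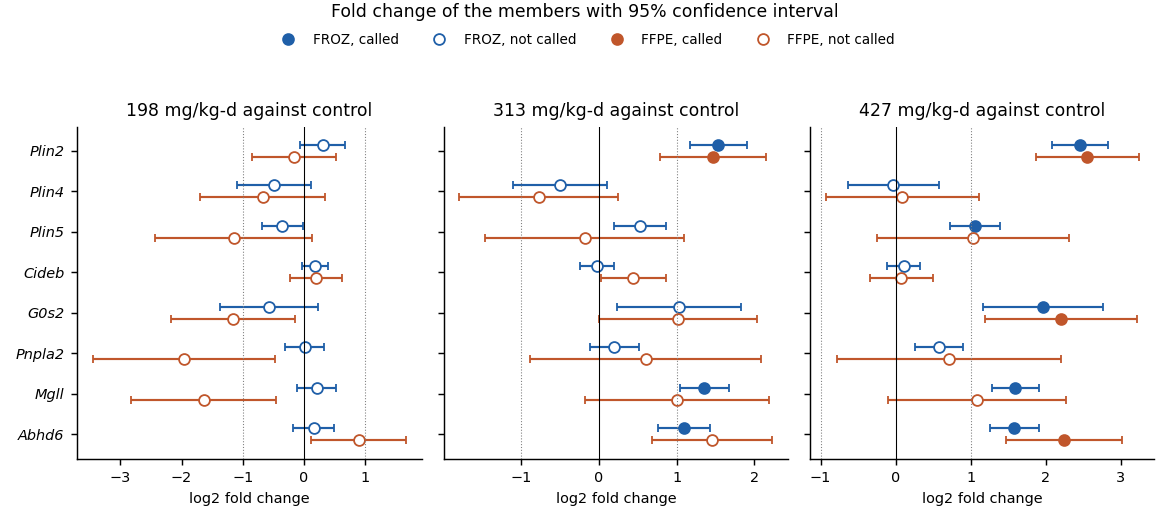
Log2 fold change of each member against controls at 198, 313 and 427 mg/kg-d in FROZ and FFPE, with 95% confidence intervals from limma. Filled points are DEGs; the dotted lines mark a fold change of 2 in either direction, and the FFPE intervals are wider than the FROZ intervals for every member.

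The levels themselves differed between preservations for 7 of 8 members at an FDR of 0.05, against 75.3% of all genes, with the caution that each table was scaled to its own set of genes. On the log2 scale FFPE minus FROZ was 3.43 ± 0.19 (SE) for Plin4, 1.60 ± 0.22 for Mgll, 1.60 ± 0.26 for Pnpla2, 1.46 ± 0.08 for Cideb and 0.86 ± 0.10 for G0s2. It was -1.27 ± 0.15 for Plin2, the one member listed lower in FFPE past the test. Plin5 differed by -0.17 ± 0.26 (FDR = 0.558) and Abhd6 by 0.25 ± 0.11 (FDR = 0.0419), and the Abhd6 difference did not pass without the animal as a block (FDR = 0.114) or with CPM over the shared genes (FDR = 0.113). It also missed the threshold in 14 of the 24 fits that left out 1 animal, so that 6 members differed there. Plin4 thus stood at a control mean of 2.37 ± 0.67 (SD, n = 6) in FROZ and 5.88 ± 0.49 in FFPE.

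Animals of 1 dose also differed among themselves, and for G0s2 both libraries of an animal showed it. After the dose mean was taken out, the FROZ and FFPE levels of G0s2 correlated over 24 animals with Pearson r = 0.933 and Spearman rho = 0.937, and with r = 0.909 without the 2 animals farthest from the median in FROZ. The same animal held the lowest G0s2 level in both libraries in all 4 dose groups (animal 4 among the controls) and the highest in 3 of 4. The value for Abhd6 was r = 0.728, and those of the other 6 members ranged from -0.312 for Pnpla2 to 0.44 for Cideb. Within FROZ, 27 of 28 pairs of members had an r above 0 over the same deviations and 7 had an r above 0.5, of which Plin2 with G0s2 (0.722) and Mgll with Abhd6 (0.714) were the highest. Without the 2 animals farthest from the median of the first gene, 4 of these 7 stayed above 0.5: Plin2 with G0s2 was 0.632, whereas Mgll with Abhd6 dropped to 0.363 and rests on those animals. These are descriptions over 24 animals in which the pairs share the same libraries. The shares of all FROZ gene pairs above 0 and 0.5 were not computed, so the counts cannot be read as particular to the members. The deviations also spread unequally over the doses. For Plin2 in FROZ the SD was 0.63 at 313 mg/kg-d against 0.09 to 0.18 in the other groups.

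**Figure D4:**
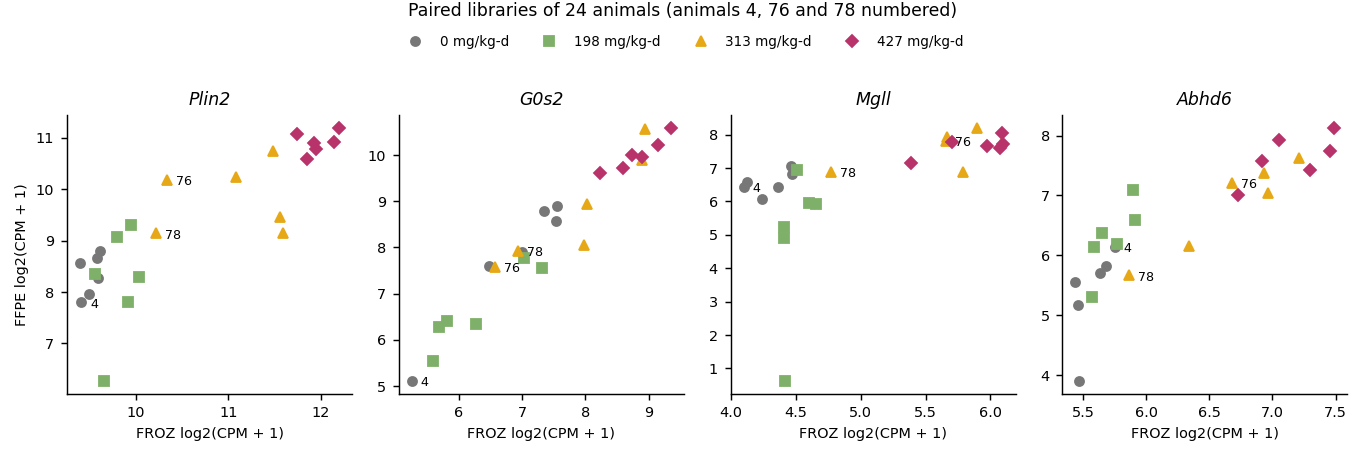
FFPE level against FROZ level of Plin2, G0s2, Mgll and Abhd6, both as log2(CPM + 1), with 1 point per animal and symbols by DCA dose. G0s2 falls along 1 line through all doses, with animal 4 at the lower left, and of the 313 mg/kg-d group animals 76 and 78 lie among the controls for G0s2, while for Plin2 animal 78 is the lowest on both axes.

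At 313 mg/kg-d, animal 78 was the lowest of its group for 4 of 8 members in FROZ and for 5 of 8 in FFPE. For animal 76 the counts were 3 of 8 in FROZ and 1 of 8 in FFPE. How often these animals were lowest over all genes was not counted, so the counts cannot be read as particular to the members. Animal 78 was lowest in both libraries for Plin2 (10.21 in FROZ and 9.14 in FFPE), Abhd6 (5.87 and 5.67) and Pnpla2 (2.60 and 5.01). In FFPE the next value of the group was close for Plin2 (9.15) and Pnpla2 (5.07), and it was 6.16 for Abhd6. Without animals 76 and 78, which were picked after their values were seen, the FROZ log2 fold change at 313 mg/kg-d was 1.92 for Plin2, 1.60 for G0s2, 1.57 for Mgll and 1.29 for Abhd6, and 4 members were DEGs in place of 3. Intake by single animals is not given in the sources used here.

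Among 12 other genes of droplet coat and assembly, 11 were listed in FROZ and 3 were higher DEGs at 427 mg/kg-d, against 2.26% of all genes. These were Hsd17b11, a droplet-bound dehydrogenase (log2 fold change 1.93 ± 0.17, SE, FDR = 1.2e-09), and Fitm1 and Fitm2, which move triglyceride into nascent droplets. Fitm1 rose by 1.51 ± 0.24 from a low mean control level of 1.03, and Fitm2 by 1.39 ± 0.16. None of the 11 was a lower DEG, 7 of 11 were higher on FDR alone against 22.7% of all genes, and the median log2 fold change of the 11 was 0.35. Among 12 other lipases and lipase cofactors, all listed, 2 were higher DEGs against the same 2.26%. One was the phospholipase and triglyceride hydrolase gene Ddhd2 (2.04 ± 0.13, FDR = 4.9e-12). The other was Pnpla3 (1.11 ± 0.36, FDR = 0.0214), whose mean control level was low at 1.22. The median of the 12 was 0.13, close to that of all genes (0.10).

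Of 15 genes of triglyceride synthesis, 12 were listed in FROZ, and at 427 mg/kg-d 3 were higher DEGs and 1 a lower DEG, against 2.26 and 1.24% of all genes. The glycerol phosphate acyltransferase genes Gpat3 (log2 fold change 1.80 ± 0.15, SE) and Gpam (1.34 ± 0.17) rose, as did the phosphatidate phosphatase gene Lpin2 (1.71 ± 0.13). Its paralog Lpin1 fell by 2.63 ± 0.20 on the log2 scale (limma, FDR = 1.1e-10), from a mean level of 8.78 ± 0.44 (SD) in controls to 6.15 ± 0.37. Of 13 PPAR receptors and known PPAR alpha targets outside droplets, 12 were listed, and 6 were higher DEGs and 1 a lower DEG against the same shares. The 4 largest increases were in Cyp4a14, Acot1, Ehhadh and Pdk4. Cyp4a14, a fatty acid omega-hydroxylase, rose by 8.70 ± 0.35 from a low mean control level of 0.71. Acot1, an acyl-CoA thioesterase, rose by 5.41 ± 0.38, and Ehhadh, an enzyme of peroxisomal beta-oxidation, by 4.75 ± 0.31. Pdk4, a pyruvate dehydrogenase kinase, rose by 2.98 ± 0.43. Ppard was the lower one and fell by 1.84 ± 0.21. Of the transcript windows of 50 bases of Acot1, 19.2% also occurred in other genes, most often Acot2, so its reads may be shared.

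**Figure D5:**
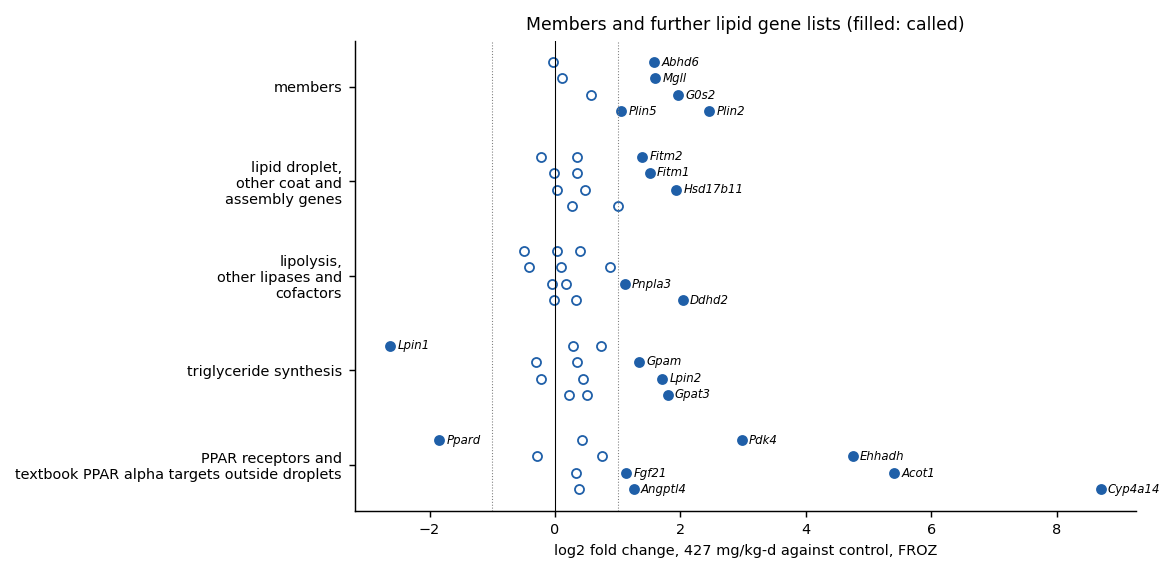
Log2 fold change at 427 mg/kg-d against controls in FROZ for the 8 listed members and for 4 further lists of lipid genes, 1 point per gene, with DEGs filled and named. Points right of 0 are higher with DCA; the dotted lines mark a fold change of 2, and Lpin1 and Ppard are the DEGs left of 0.

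In FFPE the same lists held 7, 8, 10 and 7 listed genes, of which 1, 1, 1 and 3 were higher DEGs at 427 mg/kg-d against 1.23% of all genes, and 0, 0, 1 and 1 were lower DEGs against 0.584%. Hsd17b11 (log2 fold change 1.91 ± 0.23, SE, FDR = 1.1e-06), Ddhd2 (2.36 ± 0.62, FDR = 0.0316) and Lpin2 (2.05 ± 0.19, FDR = 2.3e-09) were higher, and Lpin1 fell by 2.46 ± 0.31 (FDR = 1.6e-06). In the PPAR list Acot1 (5.21 ± 0.65) was higher and Ppard fell by 1.96 ± 0.37. Cyp4a14 and Ehhadh were higher DEGs too, from mean control levels of 0.17 and 0.70, which are close to 0 reads, to 8.94 and 6.05.

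The genes whose FROZ levels most resembled each member over the 24 libraries were listed as a description, by Pearson r among 5875 genes whose mean reached 10 CPM. For Plin2 these were Nceh1, a cholesteryl ester hydrolase (r = 0.986), Acot1 (0.975) and Acot3 (0.974). For Mgll they included Acaa1a, a peroxisomal thiolase (0.982), and Cpt2, a mitochondrial carnitine palmitoyltransferase (0.982), and for Abhd6 Acot1 (0.975), Acot2 (0.971) and Hsd17b11 (0.968). Plin5 was closest to Tenm3, Pdp2 and Acot3 (0.900 to 0.906), G0s2 to Paqr7, Nfe2l1 and Cerkl (0.867 to 0.895), and Pnpla2 to Fcgrt, Abcc2 and Npepps (0.859 to 0.909). The flat members had other neighbours: Cideb was closest to Aldh7a1, Nipsnap1 and Eif3i (0.773 to 0.837) and Plin4 to Tat, Akap13 and Klf15 (0.651 to 0.694). All libraries share the 4 doses, so 2 genes that both rise with dose have a high r whatever else they share.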

How the data were processed

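TempO-Seq libraries of 24 mice (24 FROZ and 24 FFPE) were grouped by dose and preservation from the sample records, and animal numbers in the titles paired FROZ with FFPE. The deposited values are log2(CPM + 1), which the authors made from gene counts. Reads were aligned to mm10 with STAR 2.6 (per the labels) and counted on RefSeq transcripts by expectation maximization in Partek Flow. Counts were filtered at a geometric mean of 1, scaled to CPM and log2 transformed after an offset of 1. The paper also names a zero-count offset of 0.0001, which these values do not hold, since zeros are exactly 0. Abundant probes were attenuated in the assay. The filter and the scaling were done in each table separately, and 0 columns were without a sample. The authors' own comparisons and the RNA-Seq data were not used here.

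Fold changes, steps and slopes were estimated with limma 3.58.1 in R 4.3.3 (eBayes, variance prior with a mean trend) on all genes and all 24 libraries of a table, with Benjamini-Hochberg FDR over all genes. To compare preservations, the FROZ level was subtracted from the FFPE level of the same animal and the differences were fitted with limma. The pairing was checked over 4815 genes: deviations from the dose means had a median r of 0.128 within an animal and -0.0232 between animals, and 21 of 24 FROZ libraries correlated best with the FFPE library of their own animal. Scripts were tested on simulated data. The reads behind a value were recovered from the CPM of 1 read, and since reads carry no molecular identifiers, limits from them cover counting error only. Gene positions are from GENCODE vM21 and promoters from RefSeq (GRCm38.p6). Of the transcript windows of 50 bases, 2.57% of Plin2 and 5.30% of Abhd6 also occur in other genes, and none of the other members. Probe positions within genes are not given in the sources used here.

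The members, the further lists and the tests were chosen with earlier results of these data known. Named genes were all members, up to 4 genes with the largest change among the DEGs at 427 mg/kg-d of each further list and table, and for each member the 3 FROZ genes with the highest r, and 1 gene that this rule and the list of PPAR genes held is not reported here. Alternatives were another offset (0.1 or 0.0001 CPM), a mean of at least 10 CPM, median ratio scaling, other samples in the fit, a prior without trend, array weights, no animal block, and leaving out animals. Some, namely leaving out animals 76 and 78, leaving out the 6 FFPE libraries with over 900 genes at 0, and leaving out each animal in the comparison of preservations, were chosen after seeing the data.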

Additional observations from a re-analysis of the deposited data

Results flagged for a closer look

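Dixon's ratio was taken at both ends of the 64 groups of 6 libraries (8 members, 4 doses, FROZ and FFPE), and 5 groups held a library beyond its 95% critical value, where chance alone would be expected to flag about 1 group in 20. In FROZ these were Mgll in animal 78 at 313 mg/kg-d, with a level of 4.77, and Plin4 in animal 97 at 427 mg/kg-d, with a level of 1.37. In FFPE they were G0s2 in control animal 4 (5.11), Mgll in animal 49 at 198 mg/kg-d (0.63, 1 read) and Plin5 in animal 54 at 198 mg/kg-d (0.44, 1 read). Animal 4 was also the lowest FROZ control for G0s2, at 5.26, within the critical value. Animal 78 was the lowest of its FFPE group for Plin2, Plin4, Cideb, Pnpla2 and Abhd6, and the Mgll value of its FFPE section, 6.90, lay within its group. Animal 49 and animal 54 had FROZ levels of 4.42 for Mgll and 5.76 for Plin5, in both cases within the range of the other FROZ livers of that dose or its highest value. The reason for these values was not tested.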

How the results depend on the processing

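The counts of FROZ DEGs among the members at each dose stayed within 1.5 times under every alternative, as did the counts of slopes and of differences between preservations. In FFPE, the count at 313 mg/kg-d was 1 (FDR alone also 1), and 2 with a mean of at least 10 CPM, 0 with a prior without trend, and 0 to 2 without single animals (0 without 3 or 75, 2 without 49, 51, 53 or 78), whether called with the fold limit or on FDR alone. The count at 427 mg/kg-d was 3, or 5 with only the groups compared, on either rule. Without the 6 FFPE libraries with over 900 genes at 0 it was 4. Without the animal as a replicate block, the level of Abhd6 (0.25) had an FDR of 0.114, and the other member values on preservation kept their side of the threshold. The cause of these changes was not tested.

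Log2 values that changed sign were all under the threshold. With median ratio scaling they were in FROZ Pnpla2 at 198 mg/kg-d (-0.067), Cideb at 427 mg/kg-d (-0.037) and its slope (-0.024), in FFPE Cideb (-0.028) and Plin4 (-0.013) at 427 mg/kg-d, and in the FFPE minus FROZ response Plin2 (0.046) and G0s2 (0.098) at 313 mg/kg-d and Plin5 (0.029) and Cideb (0.025) at 427 mg/kg-d. With array quality weights they were Pnpla2 (-0.052, FROZ, 198 mg/kg-d), Plin4 (0.067, FROZ, 427 mg/kg-d), and in FFPE Cideb (-0.047) and Plin2 (0.049) at 198 mg/kg-d and Cideb (-0.00037) at 427 mg/kg-d. Without the 6 FFPE libraries they were Cideb (-0.13) and Plin2 (0.37) at 198 mg/kg-d, and with dose rank the FFPE slope of Plin4 (0.017).

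Leaving out single animals gave, for the values whose sign changed, these ranges of log2 fold change: in FROZ Cideb at 313 mg/kg-d -0.11 to 0.029, Plin4 at 427 mg/kg-d -0.15 to 0.20 and Pnpla2 at 198 mg/kg-d -0.097 to 0.079, and in FFPE Plin2 at 198 mg/kg-d -0.39 to 0.22, Cideb at 427 mg/kg-d -0.021 to 0.18 and Plin4 at 427 mg/kg-d -0.070 to 0.21. In the FFPE minus FROZ response the ranges at 198 mg/kg-d were -0.13 to 0.084 for Cideb, -0.54 to 0.10 for Plin4 and -1.17 to 0.15 for Plin5. At 313 mg/kg-d they were -0.28 to 0.18 for Plin2, -0.58 to 0.021 for Plin4 and -0.23 to 0.16 for G0s2. At 427 mg/kg-d they were -0.087 to 0.062 for Cideb, -0.20 to 0.27 for Plin4, -0.23 to 0.094 for Plin5 and -0.040 to 0.27 for Pnpla2. The FFPE minus FROZ level of Plin5 ranged from -0.26 to 0.068.

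Reads limit Plin4 and Pnpla2 in FROZ (at least 8 and 39 reads) and Mgll, Plin5 and Pnpla2 in FFPE (0 or 1 read in single sections at 198 mg/kg-d), where a difference within the half-width of its 95% interval cannot be told from 0. On the log2(CPM + 1) scale the change of low genes is understated.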
